A study of Mus musculus with 6 samples.

Results

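CpG methylation was examined at 9 imprinted genes that share clusters with more than 1 control element: H19, Igf2, Meg3, Dlk1, Gnas, Grb10, Igf2r, Airn and Rasgrf1. A site was a cytosine of a CpG on 1 strand, and a site belonged to a gene when it lay between 5 kb upstream of the gene start and the gene end in GENCODE M21. This gave 628 of the 890041 sites of the table (0.0706%), or 534 CpGs once both strands were joined. The windows of Igf2r and Airn overlap, and 44 of their 50 sites lay in both, so each site was counted once.

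The sites were read by reduced representation bisulfite sequencing (RRBS), which samples CpG-rich fragments cut at CCGG. The tissue was micro-dissected dentate gyrus, the hippocampal region in which neurons are born in adult life. The 6 libraries came from female C57BL/6JRj mice aged 4.5 months, 3 housed in an enriched environment (ENR, a large cage with tunnels and toys shared by a group) and 3 in standard cages (STD). How many reads a percentage rests on is not known, except that the authors required at least 10, and the tissue label could not be compared with marker genes in methylation data.

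An imprinted gene is expressed mainly from the maternal or the paternal copy. The choice is set by control regions whose DNA is methylated on 1 parental copy in the germline, so that a mixture of both copies reads near the middle of the methylation scale. Some control regions are methylated on the maternal copy (the XL and exon 1A starts of Gnas, the internal start of Grb10, the start of the antisense RNA Airn inside Igf2r) and others on the paternal copy (the region upstream of H19, the interval between Dlk1 and Meg3, the region upstream of Rasgrf1). RRBS does not tell the parental copies apart, and no value here is a level of 1 copy.

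Runs of CpGs at intermediate levels were therefore mapped. A stretch was at least 5 consecutive covered CpGs, strands averaged, each with a mean over the 6 libraries from 25% to 75% and each at most 500 bp from the next. The 9 genes held 11 such stretches with 132 CpGs. There were 8 in Gnas and 1 each at Meg3, Grb10 and the Airn start, and none in H19, Igf2, Dlk1 or Rasgrf1. In H19 the covered CpGs form no run of 5 within the permitted gap, so no stretch could be found there at any level. The Meg3 stretch was lost with a shorter permitted gap or a minimum of 8 CpGs, and with a minimum of 3 CpGs Igf2 and Rasgrf1 held stretches too. Levels chose the stretches, so the levels below are a description. Reference sequence (GRCm38, the mm10 build, plus strand) of 6 stretches is shown because the results turn on them, whole for 4 and in part for Meg3 (4 of 6 CpGs, the first 300 bases) and Grb10 (10 of 37 CpGs, annotated untranslated regions left out). Capitals mark the CpGs that were covered and lower case marks the rest. Gnas 1 is chr2:174284790-174284862, in the coding first exon of Nesp. Gnas 5 (chr2:174298993-174299213) and Gnas 6 (chr2:174299967-174300126) are in the long coding first exon of XL. The Grb10 sequence (chr11:12026757-12026891) lies wholly upstream of the internal starts. Airn is chr17:12742226-12742387 in an intron of Airn and of Igf2r, and Meg3 (chr12:109540286-109540585) lies upstream of the Meg3 start.
Gnas 1: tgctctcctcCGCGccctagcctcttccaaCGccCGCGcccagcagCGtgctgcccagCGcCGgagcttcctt
Gnas 5: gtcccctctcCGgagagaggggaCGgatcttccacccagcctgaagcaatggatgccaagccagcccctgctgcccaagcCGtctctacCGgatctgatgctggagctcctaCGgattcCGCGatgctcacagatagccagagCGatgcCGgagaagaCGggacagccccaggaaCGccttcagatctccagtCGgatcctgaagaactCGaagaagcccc
Gnas 6: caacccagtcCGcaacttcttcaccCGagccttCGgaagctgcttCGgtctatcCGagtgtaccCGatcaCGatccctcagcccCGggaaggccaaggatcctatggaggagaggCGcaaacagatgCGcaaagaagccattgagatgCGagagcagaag
Grb10: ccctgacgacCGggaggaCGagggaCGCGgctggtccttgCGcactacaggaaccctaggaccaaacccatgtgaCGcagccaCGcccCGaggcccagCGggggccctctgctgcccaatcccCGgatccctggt
Airn: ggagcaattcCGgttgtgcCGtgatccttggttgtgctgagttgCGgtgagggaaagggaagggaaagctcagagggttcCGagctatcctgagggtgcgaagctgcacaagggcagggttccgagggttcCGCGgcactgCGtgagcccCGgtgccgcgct
Meg3: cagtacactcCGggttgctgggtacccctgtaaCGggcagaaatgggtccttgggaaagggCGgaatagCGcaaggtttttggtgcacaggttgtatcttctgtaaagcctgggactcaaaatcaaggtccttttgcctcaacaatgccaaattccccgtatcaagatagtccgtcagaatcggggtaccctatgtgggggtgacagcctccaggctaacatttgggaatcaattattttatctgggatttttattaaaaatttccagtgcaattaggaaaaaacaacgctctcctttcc

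Gnas encodes the stimulatory G protein alpha subunit, which couples hormone receptors to cyclic AMP, and also makes the secretory protein Nesp and the larger variant XL from upstream starts. Of its 172 sites, 104 had a mean from 25% to 75%, 67 lay below and 1 above. Intermediate CpGs lay around the Nespas, XL and exon 1A starts but also between starts, as at chr2:174295489-174295532, where 4 CpGs averaged 49.9% to 54.2%, while the 4 CpGs just before the first start were at 0.0% to 6.60%. Around the first starts, those of Nesp and of the antisense RNA Nespas, stretch Gnas 1 (8 CpGs within 53 bp) read 41.6%, 37.5% and 0.0% in STD replicates 1 to 3. In ENR it read 50.5%, 46.0% and 0.0%. The libraries numbered 3 of both groups were at 0 over all 8 CpGs, whereas the other 4 libraries lay between 37.5% and 50.5%. Stretch Gnas 2, 157 bp from the Nespas start at chr2:174285592-174285724, was also lowest in those libraries, with 9.90% in STD replicate 3 and 8.67% in ENR replicate 3 against 27.4% to 47.3% in the others. The 21 flanking CpGs within 5 kb of either stretch had a mean of 14.7%. All 20 CpGs within 1 kb of the Nesp and Nespas starts averaged 23.4%, and the 12 around Gm27899 beside them averaged 18.97%.

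Around the XL start, 5 stretches (Gnas 3 to Gnas 7) with 53 CpGs covered chr2:174296643-174300607. Their joint mean was 47.9%, 48.1% and 45.3% in STD and 41.2%, 35.3% and 24.4% in ENR. Every STD library was thus above every ENR library in that joint mean. The 12 flanking CpGs of Gnas 3 to Gnas 6 had a mean of 47.7%, so these runs did not stand out from single intermediate CpGs around them. Stretch Gnas 8 (15 CpGs, chr2:174327850-174328466) overlapped the exon 1A starts, which give an untranslated first exon. It read 44.9%, 47.5% and 11.8% in STD and 52.5%, 28.8% and 17.4% in ENR. Its 28 flanking CpGs had a mean of 2.52%, and all 6 libraries were higher in the stretch than in the flank. The flank lay on 1 side only. It was made of 1 CpG at 22.9%, 11 bp after the stretch, and of the 27 exon 1 CpGs described below. The contrast with exon 1 is therefore the same observation. Over all covered CpGs within 1 kb, the XL start (28 CpGs) averaged 41.3% and the exon 1A starts (16 CpGs) 33.1%. Those 28 CpGs read 50.05%, 54.7% and 40.3% in STD and 48.0%, 35.7% and 18.7% in ENR, so the groups overlapped. Only 1.5 kb further on, the 27 CpGs at the starts of exon 1, which makes the G protein subunit itself, had a mean of 1.77% and no library above 2.59%.

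**Figure D1:**
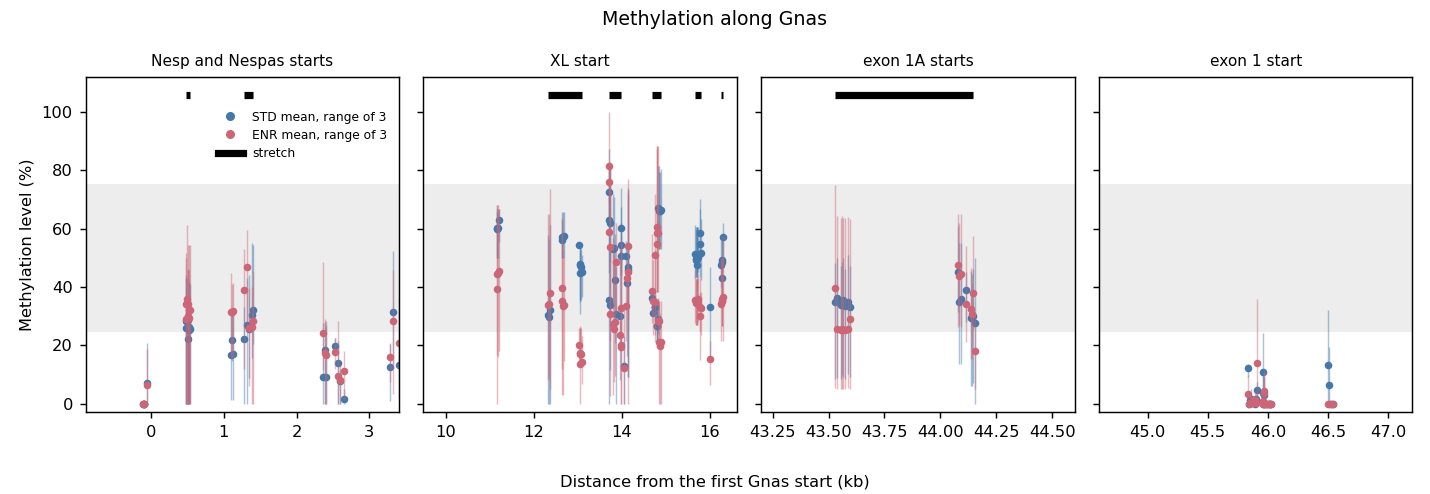
Methylation level (%) of covered CpGs along 4 parts of Gnas against the distance (kb) from its first annotated start. Points are group means, vertical lines span the 3 libraries of a group, black bars mark stretches and grey marks 25% to 75%. Levels were intermediate around the XL and exon 1A starts and near 0 around the exon 1 start, whose 27 CpGs averaged 1.77%.

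Grb10, an adaptor protein that restrains growth signalling from insulin-type receptors, is made from the maternal copy in most tissues and from the paternal copy in neurons, where transcription begins at an internal start. That start held the longest of the 11 stretches, 37 CpGs over 1145 bp at chr11:12025737-12026881. It read 50.5%, 46.5% and 29.6% in STD and 40.6%, 49.3% and 16.4% in ENR. In both groups the library numbered 3 was the lowest. The stretch covered all 37 CpGs within 1 kb of the internal starts, whereas none of the 60 CpGs around the upstream start at chr11:12037401 reached 10%. Those 60 had a mean of 1.27% and no library above 2.24%. Only 1 further CpG was covered within 5 kb of the stretch, with a mean of 80.8%, so its edges were not resolved on either side. At the first annotated start, 1.28 kb upstream of the unmethylated one, 2 of 16 CpGs were intermediate and the mean was 9.15%. The 2 windows overlap, and its CpGs at 0.0% to 6.37% were already counted among the 60. Its other CpGs, at chr11:12038625-12038771 beside the start itself, had means from 15.85% to 37.94%.

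Igf2r encodes the receptor that clears the growth factor Igf2 and sorts lysosomal enzymes, and Airn is the antisense RNA that silences it on the paternal copy. Of their 50 sites, 44 counted for both genes. The 8 CpGs of the Airn stretch at chr17:12742236-12742377, 838 bp from an Airn start, read 48.8%, 52.3% and 30.7% in STD and 49.8%, 52.9% and 27.2% in ENR. Libraries numbered 1 and 2 lay between 48.8% and 52.9% in both groups and those numbered 3 were lower. No other CpG was covered within 5 kb. The nearest ones, 8932 bp to the right and 51187 bp to the left, had means of 85.1% and 93.2%. The 23 CpGs at the Igf2r start, where methylation is known from the silent paternal copy in other tissues, had a mean of 8.03% and no CpG above 15.99%.

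The Airn sequence shown above holds 2 different read ends. They are the 2 ends of 1 fragment, because CCGG occurs only at the first and the last capital CG. The first 4 capital CGs were read from 1 end and the last 4 from the other, on the opposite strand. In STD replicate 3 the first 4 averaged 46.7% and the last 4 averaged 14.7%. In ENR replicate 2 they averaged 37.5% and 68.3%. In ENR replicate 1 the read ends were alike, at 49.3% and 50.3%.

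Meg3 is a maternally expressed noncoding RNA and Dlk1 a paternally expressed membrane protein that holds progenitor cells undifferentiated. The Meg3 stretch (6 CpGs, chr12:109540296-109540645) ended 356 bp upstream of the Meg3 start. It read 50.3%, 53.9% and 46.4% in STD. In ENR it read 15.97%, 53.0% and 28.9%. ENR replicates 1 and 3 were below all other libraries, and ENR replicate 2 lay within the STD range. The next covered CpG, 249 bp towards the start, had a mean of 0.901%, and the CpGs from there across the start were all below 7%. The 20 CpGs around the first Meg3 starts averaged 20.97%, and the 10 around the next starts averaged 43.9%. Further inside the gene (chr12:109544771-109555790), levels of single CpGs spanned 5.91% to 92.5%. The 7 CpGs at the Dlk1 starts averaged 1.45%. All 31 sites of Dlk1 were low, with a highest site mean of 6.86%, and the library means ran from 0.252% to 2.78%. The interval between Dlk1 and Meg3 lies outside the windows and holds the germline control region of the cluster. Its 13 covered CpGs (chr12:109495354-109525755) averaged 79.5%, 77.5% and 54.8% in STD and 75.2%, 75.4% and 61.7% in ENR, and 6 of them were intermediate. Whether any of them lies inside the control region was not tested.

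H19, a maternally expressed noncoding RNA, and Igf2, a paternally expressed growth factor that signals in development, share a control region upstream of H19. The region is bound on the maternal copy by CTCF, an insulator protein whose binding is blocked by methylation. The 12-letter pattern CCGCNNGGNGGC, the core of the CTCF site, was searched on both strands in the 5 kb upstream of H19 and matched 4 times, all on the minus strand. It was present in 1.94% of all 1 kb tiles with at least 3 sites. The matches are printed whole, 5′ to 3′ on the minus strand, with the distance of each from the H19 start, because they place the 3 covered CpGs of the region.
H19 upstream, 2179 bp: CCGCGTGGTGGC
H19 upstream, 2634 bp: CCGCGCGGTGGC
H19 upstream, 3660 bp: CCGCACGGCGGC
H19 upstream, 3904 bp: CCGCGTGGTGGC

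The 3 covered CpGs lay 3044, 3087 and 3243 bp upstream, between the second and the third match, and the closest of them was 406 bp from a match. Their joint level was 8.81%, 22.7% and 7.14% in STD and 14.3%, 13.8% and 4.68% in ENR. No CpG mean exceeded 17.7%, which is below the intermediate range used here. The 4 CpGs just upstream of the H19 start were low as well, from 6.31% to 12.5%, while 3 CpGs near the end of the gene were at 90.4% to 97.6%. Thus 8 of the 12 H19 sites lay below 25% and 1 was intermediate. In Igf2, 102 of 115 sites lay below 25%. The 49 CpGs at the starts shared with the antisense gene Igf2os averaged 2.26%. Of the 8 CpGs around the starts at chr7:142657466-142657496, 4 were intermediate, up to 57.8%, but they did not form a run of 5. Of the other start clusters here, the 13 CpGs at chr7:142661205 averaged 2.63%, the 11 at the further Igf2os start 23.9%, and the same 6 at the Mir483 start and the Igf2 start beside it 16.1%. The 8 CpGs around the H19 starts, which include those near the gene end, averaged 44.4%.

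Rasgrf1, an exchange factor that activates Ras and Rac after calcium entry in neurons, is expressed from the paternal copy in neonatal brain. Of its 80 sites, 71 lay below 25% and 44 CpGs around its start averaged 1.998%. A run of 4 CpGs about 6.6 kb inside the gene was intermediate, at 49.2% to 67.0%, and was 1 short of the minimum for a stretch. The germline control region lies some 30 kb upstream and outside the window. Between 5 and 40 kb upstream, 10 covered CpGs averaged 15.9%, 13.4% and 3.41% in STD and 16.3%, 8.71% and 1.80% in ENR. None of them reached 15%, so neither H19 nor Rasgrf1 had an intermediate CpG at the places sampled upstream. The covered CpGs upstream of H19 could not have formed a stretch at any level. Whether the covered CpGs lie inside the methylated parts of these regions was not tested.

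**Figure D2:**
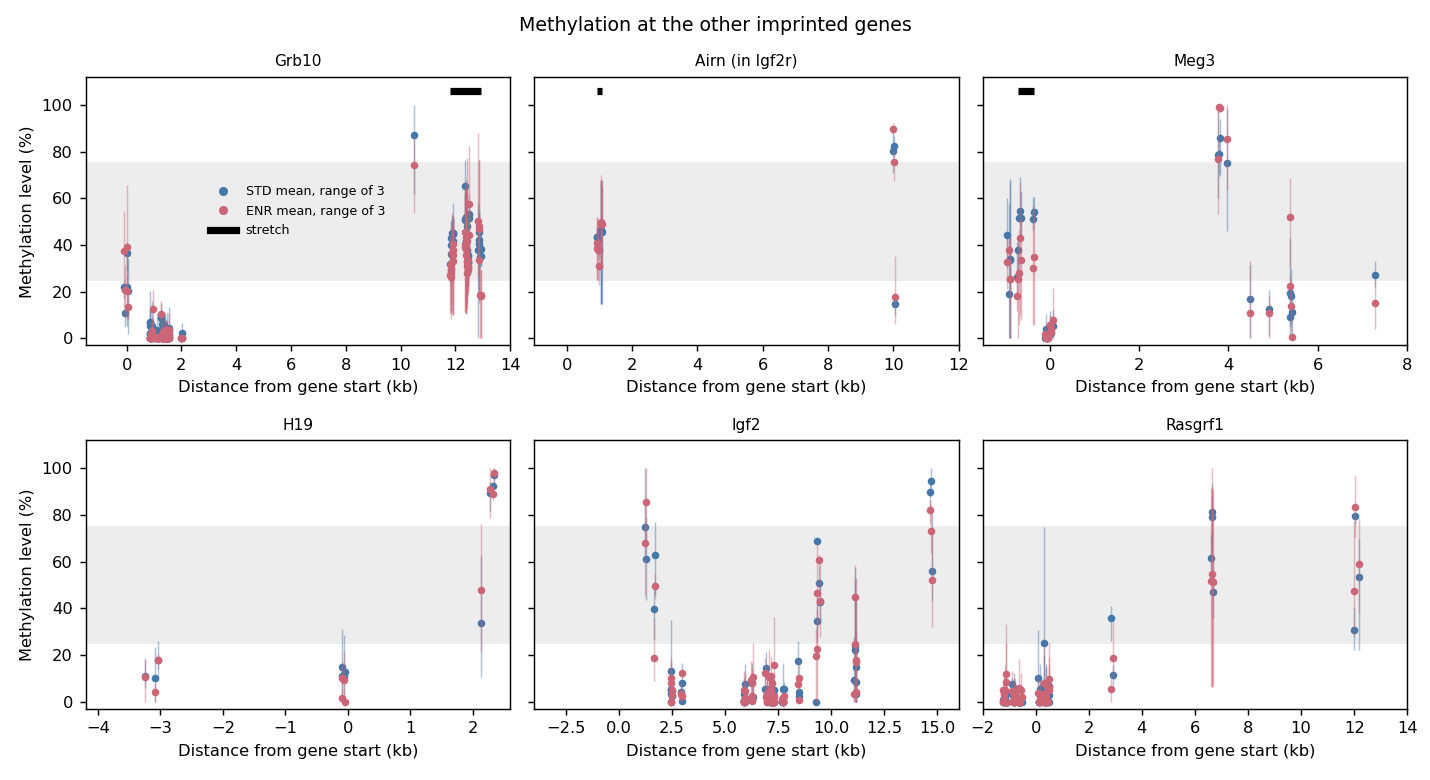
Methylation level (%) of covered CpGs of 6 genes against the distance (kb) from the gene start, with points, lines, bars and grey as in the map of Gnas. The intermediate run of Grb10 sat 12 kb inside the gene, away from the low CpGs at the upstream start, and H19 and Rasgrf1 were low at and upstream of their starts.

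The values just inside and just outside the limit of 25% were close. The lowest CpG of Gnas 2 averaged 25.8%, the CpG 22 bp before the Meg3 stretch 22.3% and the CpG 11 bp after Gnas 8 22.9%. Germline control regions are kept methylated by the zinc finger protein ZFP57, which binds the methylated letters TGCCGC. On both strands, 9 of the 11 windows of 1 kb centred on a stretch held that hexamer (81.8%), from 0 to 5 copies each. Of all 1 kb tiles with at least 3 sites, 24.1% held it. The windows are not separate, since 8 lie in Gnas and some of those overlap, so a hexamer can count more than once. The tiles were not matched to the windows for CpG content. The Airn sequence above holds 2 copies. The Grb10 stretch holds 4, all outside the printed part. A match in letters says nothing about binding.

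The 9 genes were then set against the rest of the autosomes, library by library. In STD, 34.9%, 32.5% and 21.8% of the member sites lay from 25% to 75%, against 11.1%, 11.1% and 10.6% of the 866223 other autosomal sites. In ENR the shares were 31.5%, 28.0% and 15.8% against 11.5%, 11.6% and 10.4%. Intermediate sites were more frequent at the imprinted genes in 6 of 6 libraries, by 16.4 ± 6.94 percentage points (SD, n = 6). Gnas and Grb10 held 155 of the 194 intermediate member sites, at 60.5% and 38.1% of their own sites. In H19, Igf2, Dlk1 and Rasgrf1 the share was 8.33%, 9.57%, 0% and 8.75%, below the 10.7% of other autosomal sites, so the excess was not shared by all 9 genes. For the pooled excess, a two-sided exact sign-flip permutation test over libraries gave p = 0.031, the smallest it can give. All libraries read the same sites, so this test covers the spread between mice and not the choice of genes. The excess was smallest in the libraries numbered 3, at 11.2 points in STD and 5.37 points in ENR. Of the member CpGs, 24.7% lay in a stretch, against 1.49% of other autosomal CpGs. Stretches at the imprinted genes had a median of 11 CpGs and the 1769 others a median of 6, and 8 of the 11 had at least 8 CpGs, against 15.3% of the others.

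The mean level of the 11 stretches, each weighing the same, was 47.3%, 45.8% and 32.9% in STD and 41.5%, 40.2% and 21.6% in ENR. The other stretches averaged 52.8%, 51.2% and 42.5% in STD and 52.3%, 51.1% and 36.8% in ENR. All 6 libraries were thus lower at the imprinted genes than elsewhere, and STD replicate 3 and ENR replicate 3 were lowest in both sets. These libraries also had the lowest means over all sites of the table, 22.5% and 21.3% against 23.9% to 24.3%. STD replicate 1 had all 11 stretches between 35% and 65%, and ENR replicate 3 had 2. Among autosomal genes outside the members, the longest intermediate stretches were in Plagl1 (45 CpGs, mean 47.1%), Commd1 with Zrsr1 (30 CpGs, 36.6%) and Disp3 (25 CpGs, 50.1%). The genes of Mir219a-2 and Mir219b (23 CpGs, 47.5%) and Nr4a2 (21 CpGs, 50.1%) came next. Plagl1 and Zrsr1 are known imprinted genes. By number of CpGs the Grb10 stretch came second of the 1780 autosomal stretches, after Plagl1.

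**Figure D3:**
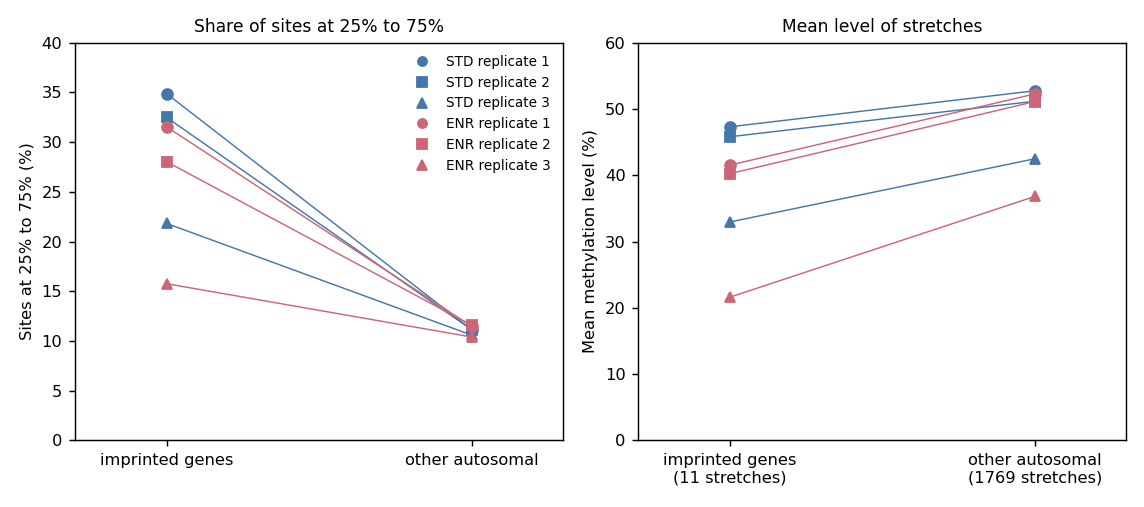
Left, share of sites (%) with a level from 25% to 75% in each library at the 9 imprinted genes and at other autosomal sites. Right, mean level (%) of the stretches in each library, with lines joining the values of a library. In all 6 libraries the share was higher at the imprinted genes, and both libraries numbered 3 (triangles) were lowest.

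The design asked whether ENR changed methylation. Over all 628 member sites the mean was 24.0%, 22.9% and 16.8% in STD and 20.9%, 22.4% and 13.4% in ENR. The groups differed by -2.29 points (ENR minus STD), less than their SDs of 3.87 in STD and 4.83 in ENR, and overlapped (two-sided exact permutation test, p = 0.5). With 3 against 3 libraries this test cannot give less than 0.1. By gene, differences ran from -4.19 points in Gnas (28.9% ± 6.52 in STD, 24.8% ± 8.89 in ENR, SD, n = 3) to -0.165 points in Igf2 (9.0% ± 1.85 and 8.84% ± 0.261). All 9 were negative as deposited, but autosomal intermediate CpGs outside these genes were also 2.68 points lower in ENR, and only Gnas and Grb10 differed by more than that. Centring each library on those CpGs adds the same 2.68 points to every gene and so turns the other 7 positive, which is no test of each gene's direction. Without ENR replicate 3 the difference was 0.466 points over all member sites, 0.894 in Gnas, 1.40 in Grb10 and 0.0711 in Airn. H19 turned positive without STD replicate 2 (2.87), and Igf2 (0.888) and Meg3 (1.35) without STD replicate 1. All groups overlapped, and exact permutation p-values were from 0.5 to 1.

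Over the CpGs of all stretches the level was 42.3% ± 8.75 in STD and 34.5% ± 12.9 in ENR (SD, n = 3). The difference of -7.79 points had p = 0.5 in the exact permutation test. It rested largely on ENR replicate 3, without which it was -0.359 points, and it was -12.8 points without STD replicate 3. Among the 11 stretches the groups did not overlap in Gnas 3 and Gnas 6. Gnas 3 read 51.1%, 47.5% and 41.6% in STD and 40.5%, 30.8% and 9.001% in ENR, a difference of -20.0 points that was -11.1 without ENR replicate 3. Gnas 6, whose sequence is shown above, read 51.9%, 46.2% and 55.7% in STD and 30.2%, 36.2% and 36.5% in ENR. Its difference was -17.0 points and stayed between -19.5 and -14.8 when each library was left out in turn. Both reached p = 0.1 in exact permutation tests, the smallest possible value, as did the joint mean of the 5 stretches at the XL start (47.1% ± 1.56 against 33.6% ± 8.57, -13.5 points). The joint difference was -8.86 points without ENR replicate 3 and lay between -17.3 and -13.0 without any other single library. Over all 28 CpGs within 1 kb of the XL start the difference was -14.2 points, but the groups overlapped (exact permutation p = 0.2). With libraries centred on their other intermediate autosomal CpGs, Gnas 3 kept p = 0.1 (-17.3 points), but the groups of Gnas 6 overlapped (-14.3 points, exact permutation p = 0.3). Gnas 3, Gnas 6 and the joint mean are 3 of the 12 stretch values compared, and none can pass 0.05 in this design. The joint mean contains Gnas 3 and Gnas 6, so the 3 values are not separate. How often the groups of the 1769 other stretches did not overlap is not given here, so this count has no base rate.

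**Figure D4:**
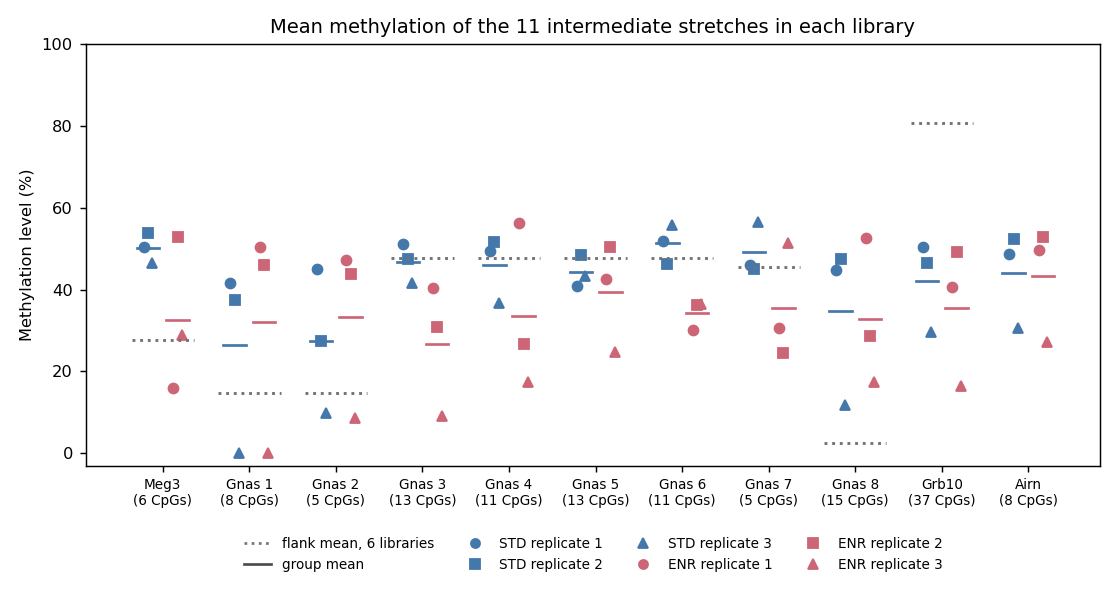
Mean methylation level (%) of the 11 stretches in each library. Points are libraries, short lines group means and dotted lines the mean of flanking CpGs within 5 kb, where any were covered. The groups were apart in Gnas 3 and Gnas 6 as deposited, though in Gnas 6 not after centring of libraries, and the libraries numbered 3 (triangles) were at 0 in Gnas 1.

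Site by site, limma called 0 of the 509 member sites that varied, and 0.00% of the 615152 sites tested in all (Benjamini-Hochberg adjusted p under 0.05 and a difference over 25 points). At an unadjusted limma p under 0.05 there were 20 member sites (3.93%), 15 lower and 5 higher in ENR, against 2.68% of all sites, of which 61.2% were lower. The difference exceeded 25 points at 27 of 628 member sites (4.30%), 21 lower and 6 higher, against 1.94% of all sites, of which 63.6% were lower. This count was 53 (8.44%, against 3.42% of all sites) without ENR replicate 1 and 44 (7.01%, against 3.08%) without ENR replicate 2. Groups did not overlap at 52 of 509 (10.2%), 37 lower and 15 higher, against 5.77%, of which 58.6% were lower. A lean towards lower levels in ENR was thus also present over the whole table. Member sites were also more often intermediate than others, and sites on the same reads are not independent. In 1 kb tiles limma called 0 of 48 member tiles, against 0.00% of 72222, and 1 tile (2.08%) had an unadjusted limma p under 0.05, against 3.98% of all. That tile, chr2:174297001-174298000 at the XL start, read 42.1%, 52.2% and 53.2% in STD and 27.2%, 18.99% and 11.1% in ENR. Its difference was -30.1 ± 8.22 points (SE, limma unadjusted p = 0.00777, adjusted p = 1.0).

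Of the 27 sites past 25 points, 22 were in Gnas, 2 in Meg3, 2 in Rasgrf1 and 1 in Igf2. In Gnas, 18 were lower in ENR and 4 higher, and 9 lay within the 201 bp of Gnas 5, printed above. Among sites past 25 points whose groups did not overlap, the site with the lowest limma p was chr2:174299186 in that stretch. It read 52.9%, 79.5% and 65.6% in STD and 31.2%, 28.6% and 0.0% in ENR, a difference of -46.1 ± 16.1 points (SE, limma adjusted p = 0.852). It shared a read end with 4 other sites, of which 3 came next by the same measure in Gnas (-45.4, -45.1 and -38.6 points). All 5 sites of that read end (chr2:174299142-174299202) were lower in ENR, with a joint level of 52.9%, 80.5% and 65.8% in STD and 34.5%, 28.6% and 8.57% in ENR. The read end beside it (chr2:174299082-174299136, 5 sites) went the other way, with 34.6%, 24.8% and 25.9% in STD and 47.6%, 87.9% and 38.5% in ENR. Both sets of groups were apart, in opposite directions, within 1 exon, and over the whole stretch the difference was -4.87 points with overlapping groups. In Rasgrf1, the site chr9:89912749 was the remaining site named by the same rule, with 40%, 26.0% and 41.2% in STD and 11.1%, 0.0% and 4.76% in ENR (-30.4 ± 11.1 points, limma adjusted p = 0.852).

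Because neighbouring CpGs share reads, the stretches were also read by read end, meaning the sites within 75 bp of a CCGG cut on 1 strand. There were 31 read ends with at least 3 sites, and they held 155 of the 162 stretch sites. The median SD between sites of a read end within a library was 3.60 points, against 19.2 points between the 6 libraries at a read end and 10.7 points between the 4 libraries numbered 1 and 2. Sites of a read end thus moved together in a library. They share the same reads, so their SD holds little of the counting error that the SD between libraries also holds. The SDs are therefore not like measures. A read end had a mean under 10% in 19 of 186 cases. These were 7 in STD replicate 3, 9 in ENR replicate 3, 2 in ENR replicate 2 and 1 in ENR replicate 1, with 0 in STD replicates 1 and 2. Means over 75% occurred in 3 cases, 2 of them in ENR replicate 2.

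**Figure D5:**
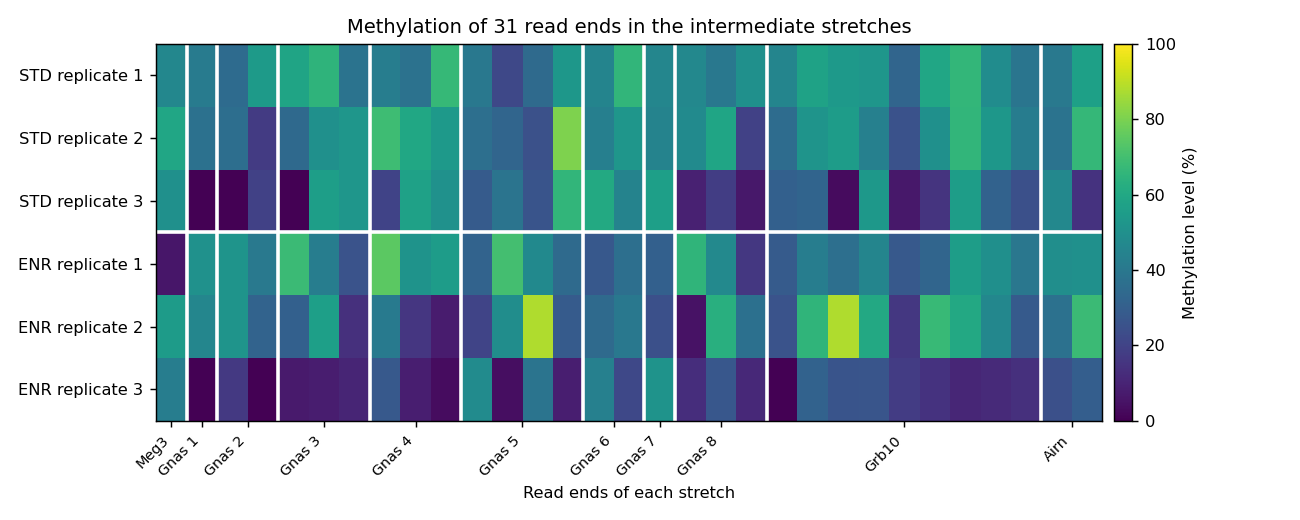
Mean methylation level (%, colour) of 31 read ends in the stretches (columns, grouped by stretch) in each of the 6 libraries (rows). Dark cells near 0 were mostly in STD replicate 3 and ENR replicate 3, which held 16 of the 19 means under 10%.

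At 30 CpGs of the stretches both strands were covered. Their strands differed by a median of 10.6 points in STD replicate 1 and 26.7 points in STD replicate 3, and by 8.61 to 22.7 points in ENR. Plus-strand means were above minus-strand means in 6 of 6 libraries, by 3.47 to 16.7 points. At 7936 other autosomal CpGs at 25% to 75% with both strands the median difference was 14.5 to 19.6 points.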

How the data were processed

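RRBS was performed by the authors on 6 dentate gyrus libraries, 1 mouse each, of 3 ENR and 3 STD mice. The authors trimmed reads, aligned them to mm10 (the submitters' processing notes list Trim Galore 0.4.0, cutadapt 1.8.1, Bismark 0.16.1 and methylKit 1.5.2) and kept cytosines with at least 10 reads. The deposited values give methylation in percent of reads for each cytosine and strand, with 0 missing values and 0 unused value columns. A label says that bisulfite converted methylated cytosines, whereas it converts unmethylated ones, so values were read as percent methylated. On this reading CpG-rich gene starts were near 0. Read numbers per site were not used here, so no interval that needs depth is given and every site weighs the same, and the logistic regression on reads planned for count data was not run. Of 757398 CpG positions checked, 757379 are CG in GRCm38, including all 534 at the imprinted genes.

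Sites were assigned with GENCODE M21. Strands were averaged for stretches and starts, where starts within 1 kb were joined and windows reached 1 kb on each side. Flanks were covered CpGs within 5 kb in no stretch. limma 3.58.1 (R 4.3.3, lmFit, eBayes with a variance trend) was fitted to the percentages of all sites that varied. It was also fitted to those of all 1 kb tiles with at least 3 sites. A trial on shuffled values added large shifts to sites of low methylation only. It therefore does not show how well limma finds smaller differences at intermediate sites. Other comparisons used exact permutation tests (Python 3.11.15, scipy 1.17.1), which measure only the spread between these mice. Named were the 9 genes, each stretch, each start cluster with at least 5 covered CpGs, the 3 regions upstream of H19, Meg3 and Rasgrf1, up to 5 sites past 25 points without overlap by limma p, and the 5 other autosomal genes with the longest stretches. Single CpGs, read ends and the tile at the XL start were chosen for mention after their values were seen. The joint mean of the stretches at the XL start was not among the items listed above. The members and lists were chosen with earlier results of these data known. No pair of libraries shared more than 5.12% of its values at sites with a mean from 10% to 90%.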

Additional observations from a re-analysis of the deposited data

How the results depend on the processing

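limma called 0 member sites and 0 member tiles under every alternative run (arcsine scale, no variance trend, quantile normalization, strands averaged, other tile sizes, each library left out, replicate block). The smallest number of unadjusted p-values under 0.05 among member sites was 14 and the largest 30. The limit on the difference moved the count of member sites past it from 27 to 50 at 20 points and to 4 at 40 points. With each library left out it ran from 33 to 53, with 53 without ENR replicate 1 and 44 without ENR replicate 2. The mean difference over member sites turned to 0.389 when libraries were centred, and ran from -4.50 to 0.466 with each library left out, positive only without ENR replicate 3. The excess of intermediate sites ran from 14.9 to 18.6 points with each library left out (p = 0.0625 in exact sign-flip tests) and was 20.4 points without STD replicate 3 and ENR replicate 3 (p = 0.125, exact). Those p-values are the smallest that 5 and 4 libraries can give. Stretches numbered 17 with a minimum of 3 CpGs and 8 to 11 with each library left out.

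Centring adds the same 2.68 points to every difference, whatever the level of the gene, so its reversals only mark differences smaller than that and do not test a direction. They were H19 (0.991), Igf2 (2.51), Meg3 (1.61), Dlk1 (2.04), Igf2r (0.199), Airn (0.177), Rasgrf1 (1.37) and the stretches Gnas 8 (0.808) and Airn (2.04). Without both libraries numbered 3, a choice made after seeing the data, Dlk1 was 0.0494 and the stretches Gnas 5 and Airn were 1.87 and 0.769. With each library left out, differences ran from -5.48 to 2.87 in H19, -0.835 to 0.888 in Igf2, -4.01 to 1.35 in Meg3, -1.31 to -0.0445 in Dlk1, -7.93 to 0.894 in Gnas, -6.13 to 1.40 in Grb10 and -5.28 to 0.0711 in Airn. In stretches they ran from -7.36 to 21.9 in Gnas 1, -2.89 to 18.2 in Gnas 2, -10.5 to 2.37 in Gnas 5, -13.3 to 5.89 in Gnas 8, -13.7 to 2.78 in Grb10 and -7.27 to 7.40 in Airn. The cause was not tested. Replicate numbers are shared between groups but the labels tie none to a batch, and the deviations of same-numbered libraries correlated at 0.0552, 0.0319 and 0.125 over all sites (0.0986, 0.0817 and 0.320 over member sites). They were therefore not treated as pairs. With the replicate block limma made 0 calls, and exact sign flips of the 3 same-numbered differences gave p = 0.25, the smallest possible, for the member sites (-2.29) and the stretches (-7.79). The unknown read depth limits every single-site value.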
